A study of Saccharomyces cerevisiae with 16 samples.

Results

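The genes described here build and remodel the polysaccharide layer of the yeast cell wall. They are 10 genes taken by name from the array table, in a set selected on the log2 ratio of UTR2 in wild type (WT) cells: UTR2 (YEL040W) and CRH1 (YGR189C), GAS1 (YMR307W), GAS3 (YMR215W) and GAS5 (YOL030W), BGL2 (YGR282C), FKS1 (YLR342W), and CHS1 (YNL192W), CHS2 (YBR038W) and CHS3 (YBR023C). No genome build is named in the sources, so no coordinates are given. The genes make up 10 of the 6321 features of the array. UTR2 was among the strongest decreases in WT, so the responses of these genes within WT are given as a description and were not tested. Differences between a deletion strain and WT were tested for the other genes, with UTR2 left out. Each gene had 1 probe.

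The wall of Saccharomyces cerevisiae consists of a glucan network with chitin and mannoproteins attached to it. Glucan chains are spun out at the plasma membrane, then cut, elongated and joined to each other and to chitin by enzymes outside the cell. Chitin is laid down mainly at the bud neck, the septum and the bud scars, so the synthesis of the wall is tied to budding and division. Benomyl depolymerises microtubules and stops cells in mitosis.

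Transcripts were compared on 2-channel arrays in a strain deleted for YAP1 (labelled DeltaYAP1), a strain deleted for PDR1 (DeltaPDR1) and WT. Yap1 is a transcription factor of the response to oxidants and drugs, and Pdr1 one that switches on drug efflux pumps. Both deletion strains were measured at 30 s and at 2, 4, 10 and 20 min (5 arrays each), and WT at the same times and at 40 min (6 arrays). On every array total RNA of benomyl-exposed cells (channel 1) was set against total RNA of unexposed cells of that strain (channel 2). Each strain and time had 1 array, and nothing says that the arrays came from separate cultures. The dose, the strain background and how the deletions were made are not given in the sources used here.

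Every value is a log2 ratio of cells with benomyl over cells of the same strain without it, relative to the average of its array. The sources do not state the base of the logarithm or which channel was on top. Base 2 was assumed. The direction is likely, on the basis of the channel order and of FLR1, which encodes an exporter that confers benomyl resistance and stood at 5.48 in WT at 10 min. Were the ratio the other way up, all signs below would be inverted. In cultures measured in bulk, fewer cells of a type and less RNA per cell cannot be told apart. A ratio says nothing about how abundant a transcript was, so genes are compared only by how they changed. Between 3450 and 6128 probes had a value on an array, and the number of arrays limits the precision. The deletions themselves cannot be checked with ratios within a strain. YAP1 gave values between -0.06 and 0.29 on the 5 DeltaYAP1 arrays, and PDR1 had a value on 1 of the 5 DeltaPDR1 arrays.

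After benomyl UTR2 was lower in DeltaPDR1 and WT cells from 4 min on and stayed nearer to 0 in DeltaYAP1 cells. It encodes a transglycosylase, also called Crh2, that links chitin to glucan. In order of time (30 s, then 2, 4, 10 and 20 min), UTR2 had log2 ratios of -0.07, 0.25, -0.24, -0.40 and -0.18 in DeltaYAP1 cells. In DeltaPDR1 cells its log2 ratios were 0.04, -0.15, -0.48, -1.11 and -1.26. In WT cells they were -0.10, -0.12, -0.41, -0.62 and -0.95, and -1.11 at 40 min. The ratio was thus lower at each later time in DeltaPDR1 and in WT, while in DeltaYAP1 the lowest value came at 10 min and the value at 20 min lay closer to 0. At 2, 4, 10 and 20 min the DeltaYAP1 value was above the DeltaPDR1 value each time, by 0.40, 0.24, 0.71 and 1.08. The late DeltaYAP1 arrays had a smaller spread over all probes. Their SD was 0.24 at 10 min and 0.30 at 20 min, against 0.31 and 0.41 in DeltaPDR1 and 0.40 and 0.54 in WT. At 10 min 1.92% of features lay below UTR2 in DeltaYAP1, 0.05% in DeltaPDR1 and 1.34% in WT. At 20 min these shares were 21.0%, 0.39% and 1.98%.

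**Figure D1:**
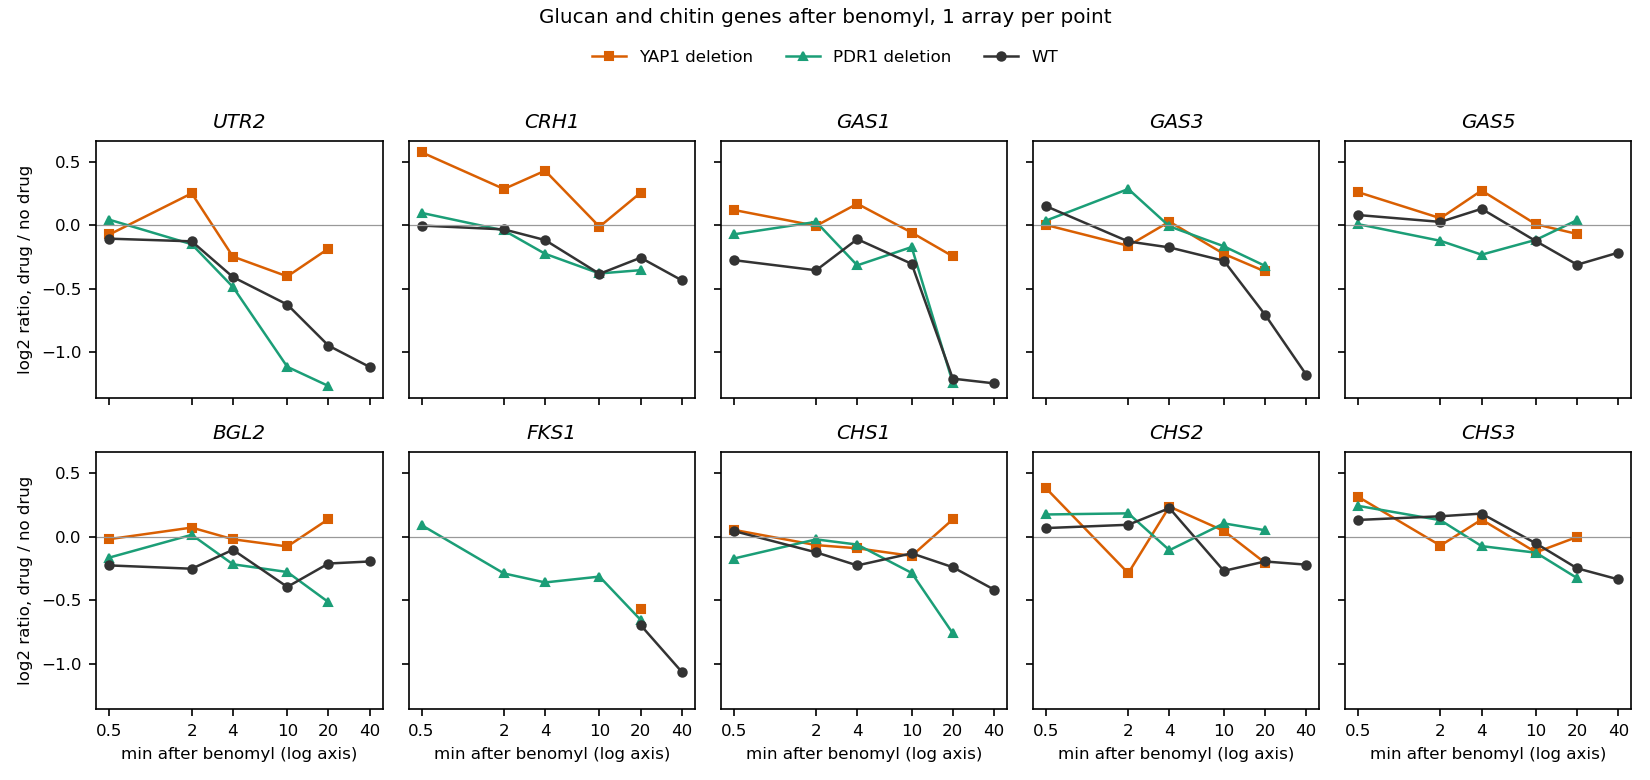
Log2 ratio (with benomyl over without) of each of the 10 genes on every array, against minutes after benomyl on a log axis. Each point is 1 array; squares are DeltaYAP1, triangles DeltaPDR1 and circles WT. UTR2 reached -1.26 in DeltaPDR1 at 20 min and -1.11 in WT at 40 min, and its lowest value in DeltaYAP1 was -0.40.

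The arrays from 2 to 20 min, 4 per strain, served as repeats in a linear model with time as a block. The time terms and the spread came from all 3 strains. The WT values that chose UTR2 therefore also entered the SE and p of its tests in the deletion strains. Fitted this way, UTR2 fell in DeltaPDR1 cells, with a mean of -0.75 ± 0.10 (SE, n = 4 arrays; limma, adjusted p = 0.00149), which leaves 0.594 of the untreated level. It had the 12th lowest mean of the 4324 features tested. In DeltaYAP1 cells its mean was -0.14 ± 0.10 (adjusted p = 0.666), with a 95% interval from -0.35 to 0.06, the 502nd lowest of that strain. The WT mean was -0.53, the 13th lowest of that strain. When only the 4 DeltaPDR1 arrays were fitted, the SE was 0.17 and UTR2 lost its call (limma, adjusted p = 0.0690).

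Means at 10 and 20 min came from a late model of the same arrays, with separate terms for 2 and 4 min and for 10 and 20 min. Its spread was shared by the early and late arrays. The late model was chosen with earlier results of these data known, so its p values are not those of a test planned in advance. There UTR2 averaged -0.29 ± 0.12 in DeltaYAP1 (adjusted p = 0.445) and fell by 1.19 ± 0.12 in DeltaPDR1 (SE, n = 2 arrays per strain; limma, adjusted p = 7.80e-05). The late DeltaPDR1 level was 0.439 of the untreated level, against 0.817 in DeltaYAP1. The difference between the deletion strains, DeltaYAP1 minus DeltaPDR1, was 0.90 ± 0.16 at 10 and 20 min, with a 95% interval from 0.54 to 1.26 (adjusted p = 0.0213). In that comparison 13 of 4323 features (0.301%) were called in this direction, and UTR2 was the only one of the 9 genes tested that was among them. Over all 4 times the UTR2 difference was 0.61 ± 0.13 (adjusted p = 0.0861). There limma called 0 of the 9 genes and 0.37% of all features. At an unadjusted p under 0.05 were 4 of the 9 genes and 569 of 4324 features. Fitted on the deletion strains alone, the late difference passed (limma, adjusted p = 0.0470). With arrays scaled to equal spread it was 0.69 ± 0.16 and did not pass (limma, adjusted p = 0.125). The late difference no longer passed in 9 of 22 alternatives, among them leaving out the arrays of WT at 2 min (adjusted p = 0.0539) or 4 min (adjusted p = 0.0518), of DeltaYAP1 at 2 min (adjusted p = 0.0506), 4 min (adjusted p = 0.0501) or 20 min (adjusted p = 0.362), or of DeltaPDR1 at 10 min (adjusted p = 0.0745) or 20 min (adjusted p = 0.283).

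Against WT the UTR2 means are a description only, since the WT values chose the gene. DeltaYAP1 minus WT was 0.49 at 10 and 20 min, and DeltaPDR1 minus WT was -0.40.

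CRH1 encodes the homologue of Utr2, which makes the same kind of chitin to glucan link. In the same order of time, CRH1 had log2 ratios of 0.58, 0.29, 0.43, -0.01 and 0.26 in DeltaYAP1 cells. In DeltaPDR1 cells they were 0.10, -0.04, -0.22, -0.38 and -0.35. In WT cells they were 0.00, -0.03, -0.12, -0.38 and -0.25, and -0.43 at 40 min. At each of the 5 shared times the DeltaYAP1 value was above both others, already at 30 s, and the DeltaPDR1 and WT values stayed within 0.11 of each other. CRH1 averaged 0.24 ± 0.07 in DeltaYAP1 (SE, n = 4 arrays; limma, adjusted p = 0.291) and -0.25 ± 0.07 in DeltaPDR1 (adjusted p = 0.0542), and neither passed. DeltaYAP1 minus DeltaPDR1 was 0.49 ± 0.10 (95% interval 0.28 to 0.70; adjusted p = 0.0604) and DeltaYAP1 minus WT was 0.44 ± 0.10 (adjusted p = 0.117). The first of these differences passed with arrays scaled to equal spread (adjusted p = 0.0396), with values required on all arrays or with the trend along probe number removed. With the 30 s array subtracted it shrank to 0.01.

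The Gas proteins are glycosyltransferases of the cell surface. Gas1, held by a lipid anchor, elongates glucan chains, and Gas5 has a similar activity. GAS1 stood at 0.12, 0.00, 0.17, -0.06 and -0.24 in DeltaYAP1 cells at 30 s, 2, 4, 10 and 20 min. In DeltaPDR1 cells the values at the same times were -0.07, 0.03, -0.31, -0.17 and -1.24. In WT cells they were -0.27, -0.35, -0.11, -0.30 and -1.21, and -1.24 at 40 min. The large decrease was first seen at 20 min in DeltaPDR1 and WT alike, and the DeltaYAP1 array of that time lay 0.96 above the WT one. With no array between 10 and 20 min, a step and a gradual fall cannot be told apart.

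GAS1 fell in DeltaPDR1 cells by 0.42 ± 0.11 over the 4 times (SE, n = 4 arrays; limma, adjusted p = 0.0425) and by 0.70 ± 0.16 at 10 and 20 min (n = 2 arrays; adjusted p = 0.0278). In DeltaYAP1 cells its means were -0.03 ± 0.11 (adjusted p = 0.955; 95% interval -0.27 to 0.20) and, at the late times, -0.15 ± 0.16 (adjusted p = 0.800). DeltaYAP1 minus WT was 0.46 ± 0.15 and did not pass (adjusted p = 0.382). Without the DeltaPDR1 array at 20 min GAS1 no longer passed over the 4 times (adjusted p = 0.198) or for the late phase (adjusted p = 0.559), where only the value of -0.17 at 10 min remained. The fitted values then were -0.31 and -0.44, in which the time block, estimated from the other strains, stands in for the missing array, and the single late array is assumed to vary like those of the other strains. The call over the 4 times was lost in 13 of 24 alternatives, also without the array of DeltaYAP1 at 4 or 10 min, of DeltaPDR1 at 4 or 10 min or of WT at 2, 4 or 10 min, and the late call in 7 of 22, also without DeltaYAP1 at 2 or 4 min or DeltaPDR1 at 10 min.

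GAS3 encodes another member of the family. In DeltaYAP1 cells GAS3 stood at 0.00, -0.16, 0.03, -0.22 and -0.36 at 30 s, 2, 4, 10 and 20 min. In DeltaPDR1 cells it stood at 0.04, 0.29, -0.01, -0.16 and -0.32 at these times. In WT cells it stood at 0.15 at 30 s and at -0.13, -0.17, -0.28, -0.70 and -1.17 at the 5 later times. The lowest value of each strain came at its last time, and both WT values from 20 min on were below all values of the deletion strains. The fitted means were -0.18 ± 0.08 in DeltaYAP1 (limma, adjusted p = 0.474) and -0.05 ± 0.08 in DeltaPDR1 (adjusted p = 0.717). GAS5 ranged from -0.07 to 0.28 in DeltaYAP1, from -0.23 to 0.04 in DeltaPDR1 and from -0.31 to 0.13 in WT, and these ranges overlapped. In WT at 40 min GAS1 and GAS3 were more than 2-fold lower, while GAS5 stood at -0.21.

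BGL2 encodes an abundant wall enzyme that cuts glucan and transfers the fragments. It ranged from -0.08 to 0.14 in DeltaYAP1, from -0.51 to 0.02 in DeltaPDR1 and from -0.39 to -0.10 in WT, so that all 6 WT values were below 0. Its mean was 0.03 ± 0.08 in DeltaYAP1 (adjusted p = 0.942) and -0.25 ± 0.08 in DeltaPDR1 (adjusted p = 0.0956), and neither passed in limma. FKS1 encodes the main catalytic subunit of the synthase that makes glucan in growing cells. It had 8 values and was not tested in the model of all strains. FKS1 stood at -0.57 in DeltaYAP1 at 20 min, the only value of that strain. In DeltaPDR1 it stood at 0.09, -0.29, -0.36, -0.31 and -0.65 at 30 s, 2, 4, 10 and 20 min, and in WT at -0.70 at 20 min and -1.06 at 40 min. The 3 values at 20 min lay within 0.13 of each other and had few features below them, 3.55% in DeltaYAP1, 2.10% in DeltaPDR1 and 4.49% in WT. Fitted on the 4 DeltaPDR1 arrays from 2 min on, FKS1 averaged -0.40 ± 0.08 and did not pass (limma, adjusted p = 0.0604 over 4923 features).

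The chitin synthases have separate tasks. Chs3 makes most of the chitin of the wall and the ring at the bud neck, Chs2 makes the primary septum, and Chs1 repairs the wall when cells separate. CHS1 ranged from -0.15 to 0.14 in DeltaYAP1. In DeltaPDR1 it stood at -0.17, -0.02, -0.06, -0.28 and -0.76 at 30 s, 2, 4, 10 and 20 min, and in WT its 6 values ran from 0.05 to -0.41. CHS1 fell in DeltaPDR1 at 10 and 20 min, by 0.52 ± 0.13 (SE, n = 2 arrays; limma, adjusted p = 0.0472), and its late mean in DeltaYAP1 was -0.01 ± 0.13. Over the 4 times the DeltaPDR1 mean of -0.28 ± 0.10 did not pass (adjusted p = 0.125). The late call was lost without the DeltaPDR1 array at 20 min (adjusted p = 0.642), where only the value of -0.28 at 10 min remained and the fit took the missing time from the other strains, and in 10 of 22 alternatives in all, among them leaving out DeltaYAP1 at 2 or 4 min, DeltaPDR1 at 2 min or WT at 2 or 4 min.

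CHS3 lay between -0.12 and 0.32 in DeltaYAP1, between -0.32 and 0.24 in DeltaPDR1 and between -0.34 and 0.18 in WT. In DeltaPDR1 and WT its values at 10, 20 and, for WT, 40 min were below those at 30 s and 2 min. CHS2 lay between -0.29 and 0.38 in DeltaYAP1, between -0.10 and 0.19 in DeltaPDR1 and between -0.27 and 0.23 in WT, with no common direction at the late times. Neither passed in either deletion strain. The late DeltaPDR1 means were -0.22 ± 0.11 for CHS3 (limma, adjusted p = 0.287) and 0.08 ± 0.13 for CHS2 (adjusted p = 0.759).

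**Figure D2:**
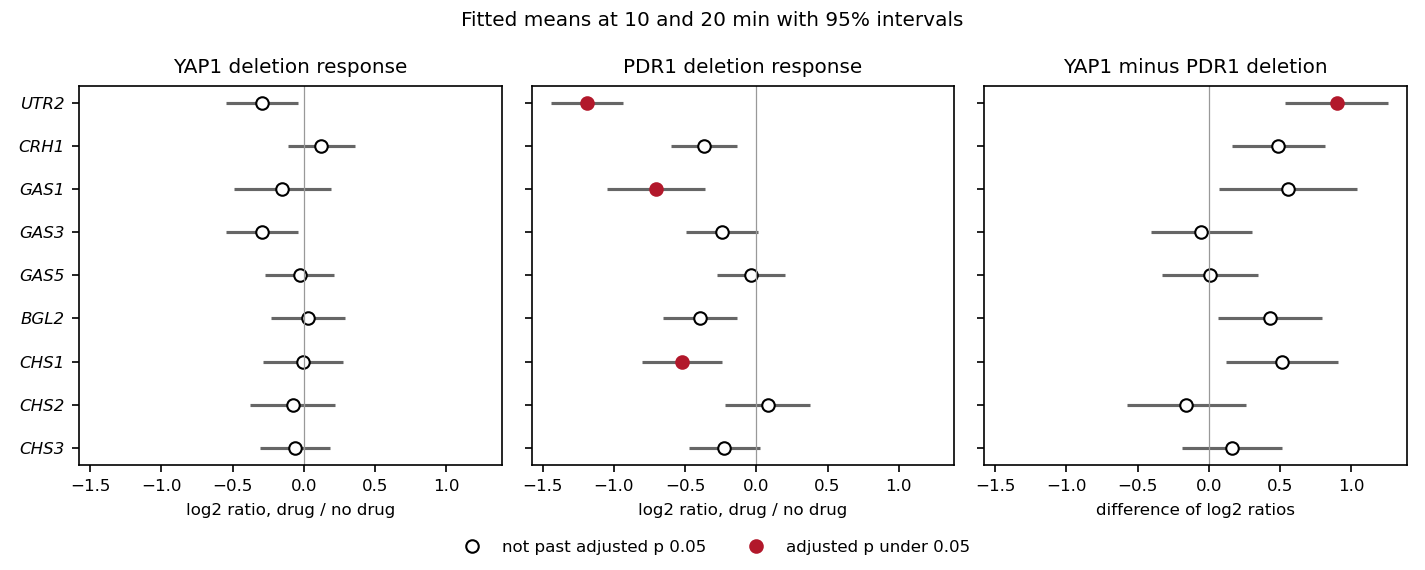
Fitted mean log2 ratio at 10 and 20 min (n = 2 arrays per strain) of the 9 genes tested, in DeltaYAP1 (left) and DeltaPDR1 (middle), and the difference DeltaYAP1 minus DeltaPDR1 (right). Bars are 95% intervals and filled points passed an adjusted p of 0.05 in limma; these were UTR2, GAS1 and CHS1 in DeltaPDR1 and UTR2 in the difference.

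Counted over the set, 0 of 9 genes tested passed in DeltaYAP1, over the 4 times or at 10 and 20 min. With each fit 2 of 9 had an unadjusted p under 0.05. So did 416 of 4324 features over the 4 times and 432 of 4323 at the late times. Across the whole array limma called 0.116% of features in DeltaYAP1 over the 4 times and 0.185% at the late times, so few calls were made in that strain at all. In DeltaPDR1, 2 of 9 genes fell over the 4 times, against 2.71% of all features, and 3 of 9 fell at 10 and 20 min, against 1.62%. None of the 9 rose with either fit, where 2.8% of features rose over the 4 times and 2.08% at the late times. The median of the 9 fitted late means was -0.06 in DeltaYAP1, -0.36 in DeltaPDR1 and -0.30 in WT, beside medians over all features of -0.01, -0.02 and -0.04. The WT median includes UTR2, which was chosen by its WT values. For DeltaYAP1 minus WT, limma called 0 of the 8 genes tested, UTR2 left out, where 0.139% of features were called. At an unadjusted p under 0.05 were 3 of 8 genes and 373 of 4324 features. At 10 and 20 min limma called 0 of 8 in either direction, beside 1.48% of features. Unadjusted, these were 2 of 8 genes and 433 of 4323 features. For DeltaPDR1 minus WT limma called 0 of 8 beside 0% of features, and 0 of 8 beside 0.278% at the late times. Unadjusted, these were 1 of 8 genes and 617 of 4324 features, and 0 of 8 genes and 760 of 4323 features. A difference from WT that missed the threshold does not show that the strains responded alike.

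On single arrays, the genes below 0 in DeltaYAP1 were 2 of 9 at 30 s, 5 of 9 at 2 min, 3 of 9 at 4 min, 7 of 9 at 10 min and 7 of 10 at 20 min. Of all features 45.6%, 49.4%, 53.5%, 59.1% and 46.5% were below 0 on these arrays. In DeltaPDR1 they were 3 of 10 at 30 s, 5 of 10 at 2 min, 10 of 10 at 4 min, 9 of 10 at 10 min and 8 of 10 at 20 min, beside 51.5%, 46.1%, 53.4%, 53.9% and 51.2% of all features. In WT they were 4 of 9 at 30 s, 6 of 9 at 2 and at 4 min, 9 of 9 at 10 min and 10 of 10 at 20 and at 40 min, beside 47.9%, 54.0%, 56.9%, 57.3%, 54.0% and 51.8% of all features. At 20 min, 0 of the 10 genes were at least 2-fold lower in DeltaYAP1 (0.524% of all features) and 2 of 10, UTR2 and GAS1, in DeltaPDR1 (0.771% of all features). In WT 1 of 10, GAS1, was 2-fold lower at 20 min (1.73% of all features), and 4 of 10, UTR2, GAS1, GAS3 and FKS1, at 40 min (3.43%). UTR2 was chosen for its WT decrease, so its place in the WT counts, also in those below 0, follows from that choice. No gene of the set was 2-fold higher on any of the 16 arrays.

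**Figure D3:**
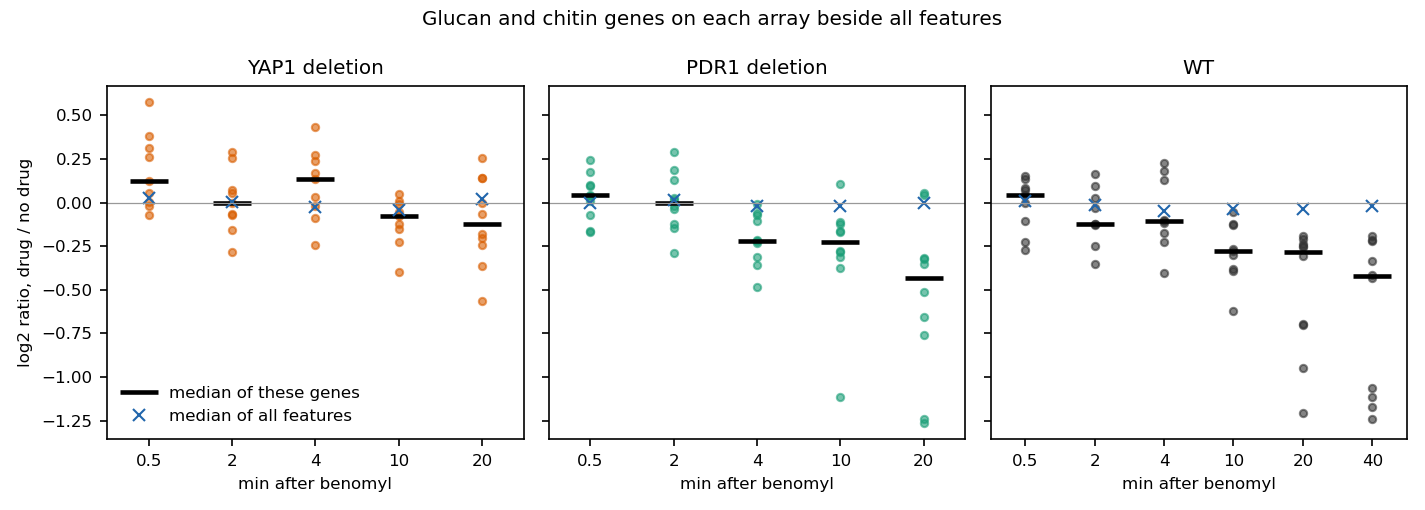
Log2 ratio of each of the 10 genes on every array (points), with the median of those with a value (bar) and the median of all features (cross), by minutes after benomyl for DeltaYAP1 (left), DeltaPDR1 (middle) and WT (right). The median of the genes was -0.12 in DeltaYAP1, -0.43 in DeltaPDR1 and -0.28 in WT at 20 min, while the median of all features stayed between -0.05 and 0.03 on the 16 arrays.

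The DeltaPDR1 array at 20 min carried the largest trend along the order of the probes, with a rank correlation of -0.36 between the ratio and the probe number, against -0.11 on the DeltaYAP1 array and 0.01 on the WT array of that time. With the trend removed, the late DeltaPDR1 means were -1.24 for UTR2 (adjusted p = 4.62e-05), -0.59 for GAS1 (adjusted p = 0.0450), whose call over the 4 times was lost (-0.35, adjusted p = 0.0680), and -0.38 for CHS1, which then did not pass (adjusted p = 0.135).

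By Pearson correlation over the arrays, among 4239 features that shared at least 14 arrays with UTR2, the 5 most like it were ELC1, CIS3, VPH1, PSA1 and PHO3, with r from 0.91 to 0.89. CIS3 encodes a mannoprotein of the wall and PSA1 the enzyme that makes GDP-mannose, the sugar donor for mannoproteins. ELC1 encodes elongin C, VPH1 a subunit of the vacuolar proton pump and PHO3 an acid phosphatase. Within the set r with UTR2 was 0.78 for CRH1, CHS3 and CHS1, 0.76 for GAS1, 0.67 for BGL2, 0.63 for GAS3, 0.49 for GAS5 and 0.23 for CHS2, over 16 arrays. In the same order these genes ranked 49th, 51st, 54th, 71st, 183rd, 255th, 550th and 1448th among the 4239 features. FKS1 shared 8 arrays with UTR2 (r = 0.67) and was not ranked. These arrays share their strains and times, so the coefficients are a description.

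Other wall genes were read in lists by role. Of 18 other glucanases and transglycosylases 13 were tested. In DeltaYAP1 0 passed, and in DeltaPDR1 2 fell, the glucanase-like SCW10 (-0.45 ± 0.10, adjusted p = 0.0246) and SUN4 (-0.32 ± 0.08, adjusted p = 0.0413), which acts in septation. Of all features 2.71% fell in DeltaPDR1. In WT 2 fell, where limma called 1.55% of all features as lower, and these were SCW11 (-0.37 ± 0.10, adjusted p just under 0.05) and the intracellular glucanase ACF2 (-0.47 ± 0.10, adjusted p = 0.0295). At 10 and 20 min SCW10 was the only gene of this list called in DeltaPDR1 (-0.69 ± 0.13) and in WT (-0.64 ± 0.13), where 4.58% of features were called as lower. The medians of the late means were -0.10 in DeltaYAP1, -0.21 in DeltaPDR1 and -0.22 in WT.

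Of 23 wall mannoproteins 20 were tested. In DeltaYAP1 0 passed. In DeltaPDR1 4 fell over the 4 times, among them CCW12 (-0.43 ± 0.11), HSP150 (-0.44 ± 0.09) and PIR1 (-0.37 ± 0.09), with limma adjusted p from 0.0188 to 0.0374. Of all features 2.71% fell there and 2.8% rose. SPI1, an anchored wall protein induced by stress, rose by 0.78 ± 0.19 in DeltaPDR1 over the 4 times (limma, adjusted p = 0.0405). In WT it rose by 0.98 ± 0.24 (adjusted p = 0.0416), where 2.61% of all features rose. Its DeltaYAP1 mean was 0.44 ± 0.19 and did not pass (limma, adjusted p = 0.494). At the late times HSP150 (-0.46 ± 0.11) and PIR1 (-0.54 ± 0.12) fell in DeltaPDR1, and SPI1 rose by 1.69 ± 0.21, where 1.62% of all features fell and 2.08% rose. At these times HSP150 (-0.44 ± 0.11), ECM33 (-0.41 ± 0.10) and TIR1 (-0.51 ± 0.13) fell in WT, where 4.58% of all features were called as lower. Of the 20 genes, SPI1 among them, 0 passed as higher in WT at the late times.

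In the other lists fewer genes passed. Of 17 further genes of chitin synthesis and turnover 13 were tested. Over the 4 times 1 passed, SKT5, the activator of Chs3. It rose by 0.42 ± 0.10 in DeltaPDR1 (limma, adjusted p = 0.0394), where 2.8% of all features rose. At 10 and 20 min 0 of the 13 passed in any strain. For synthesis of the branched glucan 7 of 10 genes were tested, and for the synthase of the main glucan chain 1 of 5, and 0 of these passed in any strain with either model. Of 18 wall integrity signalling genes 17 were tested. At 10 and 20 min SLT2 (-0.51 ± 0.13, adjusted p = 0.0351), the MAP kinase of the pathway, and SWI6 (-0.46 ± 0.12, adjusted p = 0.0451), a cofactor of G1 transcription factors, fell in WT, and 0 passed in DeltaYAP1 or DeltaPDR1. In WT 4.58% of all features were called as lower at these times. Of 9 genes of daughter cell separation, which hold SCW11, 8 were tested. AMN1 encodes an inhibitor of the exit from mitosis. It averaged -0.03 ± 0.15 in DeltaYAP1 at the late times and fell by 1.16 ± 0.15 in WT, and DeltaYAP1 minus WT was 1.13 ± 0.21 (limma, adjusted p = 0.0179; 0.208% of features were called in this direction). Over the 4 times this AMN1 difference was 0.69 ± 0.19 and did not pass (adjusted p = 0.239). The late AMN1 mean in DeltaPDR1 was -0.28 ± 0.15 (adjusted p = 0.299).

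**Figure D4:**
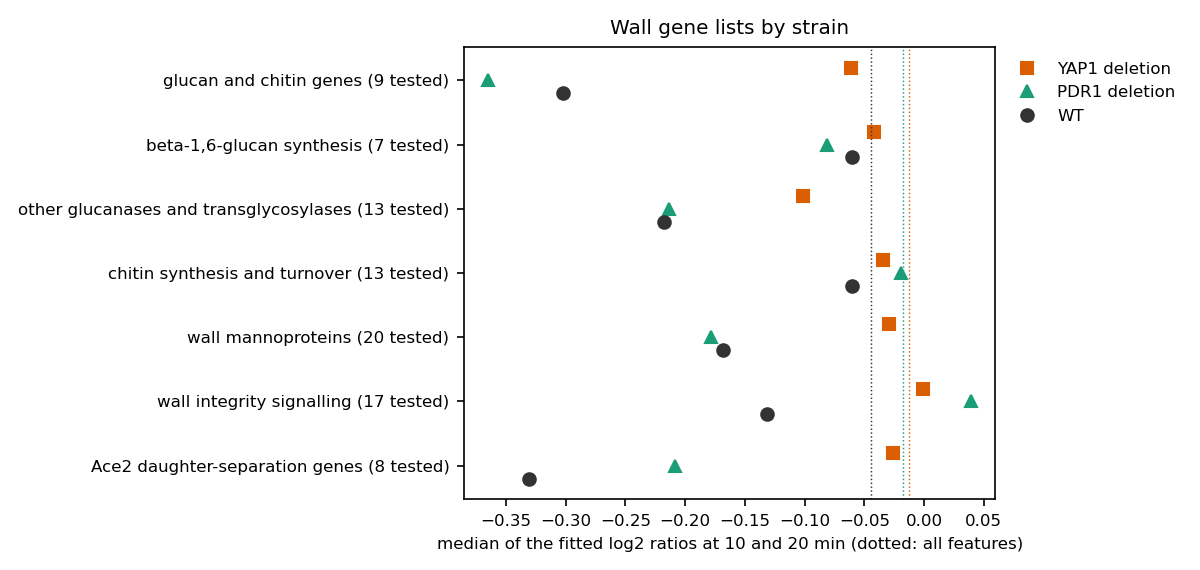
Median of the fitted late log2 ratios (10 and 20 min) over the tested genes of each list, for DeltaYAP1 (squares), DeltaPDR1 (triangles) and WT (circles); dotted lines mark the median over all features of each strain. The 10 glucan and chitin genes (9 tested) had medians of -0.06, -0.36 and -0.30, and wall integrity signalling lay at 0.00, 0.04 and -0.13.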

How the data were processed

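Gene expression was measured on 16 two-channel arrays of Saccharomyces cerevisiae. Each array has 1 column of deposited log ratios, read as log2; the authors' background correction, normalisation and spot filter are not given in the sources used here. Array means lay between -0.0012 and 0.00047, so the deposited values were centred per array. The platform annotation named 5628 of 6338 probes, and symbols were updated through the RefSeq annotation; duplicate probes were averaged, which gave 6321 features.

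Models were fitted with limma 3.58.1 in R 4.3.3 to the 12 arrays of 2 to 20 min, with strain and time as terms, for features with values on at least 3 of 4 arrays of each strain (4324). The late model held strain-by-phase terms (4323 features). Tests were two-sided, with Benjamini-Hochberg adjustment over all features. SE is the moderated standard error, from a spread that also holds strain differences that change with time. The 4 times are not biological replicates of one another. Alternatives changed the centring, scaling, filter, time block, probe-order trend, use of the 30 s arrays and strains fitted, or left out 1 array. The models were also run on simulated data with independent normal noise and, for some features, a fixed shift in DeltaPDR1. Those data held no gradual change over time and no trend along probe number, so they do not test the calls made here.

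All 10 genes, the FLR1, YAP1 and PDR1 checks, up to 4 called genes per list and the 5 genes most like UTR2 are named. Genes, lists and the late model were chosen with earlier results of these data known.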

Additional observations from a re-analysis of the deposited data

Results flagged for a closer look

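GAS1 in DeltaPDR1 at 20 min stood at -1.24, apart from the other 4 arrays of that strain, which lay between -0.31 and 0.03; its gap to the next value was 0.730 of the range. Of 28 sets of arrays (1 gene in 1 strain) looked at, 1 stood apart in this way, and chance gives about 1 in 20. The arrays are of different times, and WT had a GAS1 value of -1.21 at 20 min.

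Over all 4 times the UTR2 difference between the deletion strains did not pass (limma, adjusted p = 0.0861). At 10 and 20 min it was called by the late model, which was chosen with earlier results of these data known. That call was lost in 9 of 22 alternatives. DeltaYAP1 minus DeltaPDR1 was 0.90 ± 0.16 (SE, n = 2 arrays per strain; limma, adjusted p = 0.0213, range over the alternatives 0.00459 to 0.362), with DeltaYAP1 higher at all 4 times from 2 to 20 min.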

How the results depend on the processing

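The fall of UTR2 in DeltaPDR1 passed in 23 of 24 alternatives over the 4 times. The exception used only the strain's own arrays (limma, adjusted p = 0.0690). It was the only one without WT arrays, which had chosen UTR2. At 10 and 20 min the fall passed in 22 of 22, own arrays only included (limma, adjusted p = 0.00034), and its mean ranged from -1.24 to -1.02. Both tallies count the subtraction of the 30 s array, whose limits are given below. Other calls moved more, and the cause was not tested except where named. The count of genes called in DeltaPDR1 over the 4 times was 2; it was 1 with arrays scaled, with no replicate block (no time block) or without the array of each strain that follows probe number most (DeltaYAP1 at 2 min, DeltaPDR1 and WT at 20 min, chosen after seeing the data), 0 with only the strain's own arrays, 4 with the 30 s array subtracted, and 1 to 2 when an array was left out. The late count of 3 was 1 with arrays scaled or own arrays only, 2 with no block, 4 with the 30 s array subtracted, and 1 to 3 when an array was left out. The DeltaYAP1 count of 0 was 1 with the 30 s arrays included (CRH1) and 3 with the 30 s array subtracted, as was the late count; there CRH1 turned to -0.33 and, late, -0.45, because it stood at 0.58 at 30 s. Subtracting 1 array puts its error into all others of the strain, so these calls are not comparable. For DeltaYAP1 minus DeltaPDR1 the count of 0 was 1 with arrays scaled, values on all arrays, or the probe trend removed (CRH1 each time) and with the 30 s array subtracted (UTR2); the late count of 1 was 0 with arrays scaled or with no replicate block, and 0 to 1 when an array was left out. For DeltaPDR1 minus WT the count of 0 was 1 with the 30 s array subtracted (GAS3). Replicate numbers follow accession order and pair nothing; the block is time, from the labels. Across all features the DeltaPDR1 count of 238 ranged from 54 to 239 when an array was left out, the DeltaYAP1 count of 5 from 0 to 6, and the late DeltaYAP1 minus DeltaPDR1 count of 49 from 5 to 79. In the other alternatives these counts ranged more widely, from 37 to 863, from 1 to 1090 and from 33 to 759. Depth in the sense of spot brightness was not analysed here.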
